A study of Homo sapiens with 38 samples.

Results

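The genes described here encode the RAS, RAF, MEK and ERK proteins that pass a growth signal from the cell membrane to the nucleus. They were followed in melanoma cells with and without acquired resistance to a BRAF inhibitor. The list held 7 genes: HRAS and NRAS (RAS), ARAF and BRAF (RAF), MAP2K1 and MAP2K2 (MEK1 and MEK2), and MAPK3 (ERK1). Every array probe set naming one of them was taken, whatever its value. 5 of the 7 genes had a probe set, 8 probe sets in all of the 54675 on the array, and 0 of the 8 named a further gene. NRAS and BRAF are not analysed here, because no probe set of the annotation used names them. 7 of the 8 probe sets passed the filter on low signal and were tested among 47087. The remaining probe set, the third of MAP2K2, stayed between 1.27 and 11.6 signal units on the 38 arrays and was above the pooled median on 0 of them.

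Cells were A375, an established human melanoma line called parental here, and clone 16R6-4, a single clone derived from A375 that resists GSK2118436 (GSK436, dabrafenib, a BRAF inhibitor). The other drug was GSK1120212 (GSK212, trametinib, a MEK inhibitor). Each line was kept for 24 hours in RPMI1640 with serum and 1 of 7 treatments: DMSO, 0.1 or 1 µM GSK436, 10 or 30 nM GSK212, or 10 nM GSK212 with 0.1 µM GSK436 (the low combination) or with 1 µM GSK436 (the high combination). This gave 14 groups of 2 or 3 arrays, 18 arrays of parental and 20 of resistant cells. Resistance is represented by 1 clone only. Whether arrays within a group represent separate cultures is not stated in the labels, and p-values measure only the spread between arrays.

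In this cascade, active RAS recruits RAF kinases, which phosphorylate the MEK kinases, which in turn phosphorylate ERK. ERK then phosphorylates kinases and transcription factors and switches on genes that restrain the pathway, among them the DUSP phosphatases and the SPRY and SPRED proteins. Many melanomas carry an activated BRAF, and drugs against BRAF or MEK act on the kinases as proteins. The arrays measured only the messenger RNA of the cascade genes.

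The signals showed one main pattern. In parental cells MAPK3 rose with both drugs and was called in 5 of 6 drug comparisons. MAP2K1 was called lower in 4 of 6 and the main MAP2K2 probe set higher in 3 of 6. The 3 MAP2K2 calls were lost when each array was centred on its median. HRAS was called in 0 of 25 comparisons. The directions of MAPK3, MAP2K1 and MAP2K2 were also those of their slopes against the actin probe ratio described below. Both parental groups given GSK436 alone lay wholly above a ratio of 20 and the parental DMSO group wholly below it. Drug and ratio cannot be told apart there by leaving arrays out. In resistant cells given GSK436 alone no probe set of the 5 genes was called. Of all probe sets only 0.00212% were called there with 0.1 µM and 0.0361% with 1 µM. MAPK3 was called higher in resistant cells with the high combination. That call was lost with centred arrays, after quantile normalization and when certain single arrays were left out.

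Signal is a linear array intensity in which the trimmed mean of every array was 150.0, and the pooled median over all probe sets was 34.88. Changes are differences of group means of log2(signal + 2.8), with a standard error (SE) from a limma fit of all 14 groups. A probe set is called where its Benjamini-Hochberg adjusted p over all 47087 is under 0.05 and its log2 change is at least 1. A signal depends on its probes, so levels are compared within a probe set and never between genes. Bulk RNA does not tell fewer cells with a transcript from less of it per cell.

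Some features of the whole data set bear on these genes. The 3′ to 5′ actin probe ratio, which rises where RNA is degraded or its labelling is incomplete, ran from 3.72 to 45.0 and exceeded 20 on 15 arrays. Its group means were 7.76 with DMSO, 37.3 with 0.1 µM GSK436 and 27.9 with 1 µM GSK436 in parental cells, and 5.47, 19.9 and 10.9 in resistant cells. Most probe sets read higher in the parental drug groups than with DMSO. The median log2 change of all tested probe sets was 0.17 to 0.46 over the 6 parental drug comparisons. It was -0.35 to -0.13 once each array was centred on its median, and -0.012 to 0.035 after quantile normalization. The parts of drug and of the actin ratio in this shift were not tested. Of the melanocyte markers, 7 of 8 had a tested probe set. MLANA, PMEL, TYR, TYRP1 and S100B had median signals of 10.4 to 21.6, below the pooled median. MITF was above the pooled median on 38 arrays, and SOX10 averaged 529 in parental and 2.43 in resistant cells with DMSO. The summed signal of these markers was 972 to 999.7 in parental cells with DMSO, 1860 to 2037 with 0.1 µM GSK436 and 1344 to 1362 with 1 µM. Of 6 leukocyte markers 4 had a probe set (PTPRC, CD3E, CD14 and NCAM1), none was listed at 0, and their median signals were 7.46 to 46.5. Their sum was 58.4 to 127 in parental cells with DMSO, 158 to 188 with 0.1 µM and 139.5 to 221 with 1 µM GSK436, and 57.9 to 66.5 in resistant cells with DMSO. The part of these markers in the results was not tested.

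The MEK and ERK genes carry most of the calls below and moved together or in opposition, so the promoter windows of these 3 genes are given first. Each is the 250 bases upstream of the RefSeq start on GRCh38.p14, read 5′ to 3′ on the gene's own strand. They lie at chr15:66386662-66386911 on the plus strand (MAP2K1), chr19:4124123-4124372 on the minus strand (MAP2K2) and chr16:30123221-30123470 on the minus strand (MAPK3). Capitals mark matches on either strand to the motifs listed in the next paragraph.
MAP2K1: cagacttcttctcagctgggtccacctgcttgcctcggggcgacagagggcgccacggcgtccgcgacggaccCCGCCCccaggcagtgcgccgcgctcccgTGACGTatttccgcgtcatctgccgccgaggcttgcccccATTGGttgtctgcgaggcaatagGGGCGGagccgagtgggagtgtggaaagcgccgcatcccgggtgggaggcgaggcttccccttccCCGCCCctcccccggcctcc
MAP2K2: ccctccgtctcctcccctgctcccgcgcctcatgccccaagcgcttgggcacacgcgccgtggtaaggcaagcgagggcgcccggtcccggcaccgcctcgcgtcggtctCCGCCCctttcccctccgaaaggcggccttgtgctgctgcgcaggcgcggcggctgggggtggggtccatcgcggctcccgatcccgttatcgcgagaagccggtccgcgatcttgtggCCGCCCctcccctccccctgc
MAPK3: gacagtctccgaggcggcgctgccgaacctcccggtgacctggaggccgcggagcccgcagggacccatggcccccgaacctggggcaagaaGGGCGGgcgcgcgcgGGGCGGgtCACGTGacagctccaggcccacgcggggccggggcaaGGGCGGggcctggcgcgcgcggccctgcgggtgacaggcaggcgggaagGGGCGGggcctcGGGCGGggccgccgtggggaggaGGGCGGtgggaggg

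All 3 windows are rich in G and C, at 71.2% for MAP2K1, 74.0% for MAP2K2 and 80.4% for MAPK3, against a median of 58.0% over 35116 RefSeq windows of the same length. The motifs searched, on both strands, were the ETS site CCGGAAG, the AP-1 site TGANTCA, the core letters TGACGT of the cyclic AMP element, the E-box CACGTG, the GC box GGGCGG, the ATF4 composite site TGATGNAA and the CCAAT box. GC boxes, the letters read by SP1-type factors, occur 3 times in the MAP2K1 window, 2 times in that of MAP2K2 and 6 times in that of MAPK3, and 42.6% of all windows hold at least 1. The MAP2K1 window also holds 1 match to the TGACGT core (7.1% of all windows) and 1 CCAAT box (32.0%), and the MAPK3 window holds 1 E-box (6.34%). The ETS letters (8.52% of all windows), the AP-1 letters (6.57%) and the ATF4 composite letters (3.14%) are in 0 of these 3 windows. The HRAS window holds 1 ETS match, 3 GC boxes and 1 CCAAT box, and the ARAF window 1 TGACGT core and 2 CCAAT boxes. A match is a description of the letters only.

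Without drug, the cascade genes did not differ between the lines beyond the threshold. Of the 7 tested probe sets 0 were called between resistant and parental cells with DMSO, against 2.04% of all probe sets, and 0 of the 7 had an unadjusted p under 0.05. MAPK3, which encodes the kinase ERK1, read 166, 164 and 182 in the 3 parental arrays and 131 and 105 in the 2 resistant arrays. The resistant arrays lay below all parental arrays, with a log2 difference of -0.53 ± 0.28 (SE, limma adjusted p = 0.532, 95% interval -1.10 to 0.04). MAP2K1 differed by 0.18 (adjusted p = 0.954, 95% interval -0.54 to 0.89), and the other 5 probe sets by -0.28 to 0.17.

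HRAS, a membrane GTPase at the top of the cascade, had a steady signal on the array. Its 1 probe set ran from 356 to 861 over the 38 arrays, a span of 2.42-fold, with a median of 490.3. In parental cells it read 528, 566 and 861 with DMSO, 752 and 557 with 0.1 µM GSK436, and 792 and 828 with 1 µM GSK436. The 861 of a DMSO array was the highest value of all, and the groups overlapped. With 30 nM GSK212 HRAS read 404 and 399, below all 3 DMSO arrays, a log2 change of -0.66 ± 0.23 (limma adjusted p = 0.069). In resistant cells it read 649.6 and 464 with DMSO and 387, 475 and 356 with 1 µM GSK436. HRAS was called in 0 of 25 comparisons, and its resistant drug changes lay between -0.45 and 0.02 on the log2 scale. It was called in 2 alternatives: with 30 nM GSK212 in parental cells when arrays were centred on their median (-1.08, adjusted p = 0.00124), and for the line difference with 1 µM GSK436 without parental DMSO replicate 3 (-1.01, adjusted p = 0.0447).

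ARAF, the RAF kinase other than BRAF that could be measured, had 2 probe sets that did not behave alike. The bright one read 315, 353 and 471 in parental cells with DMSO, 495 and 414 with 0.1 µM GSK436, and 497 and 594 with 1 µM GSK436. The 1 µM arrays lay above the DMSO arrays, but the log2 change of 0.54 was under the threshold. In resistant cells this probe set read 406 and 244 with DMSO and 239.6, 272 and 199 with 1 µM GSK436, with overlap. It was called in no comparison, though with array weights its line difference with 1 µM GSK436 was called (-1.04, limma adjusted p = 0.0284).

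The dim ARAF probe set read 131, 169 and 42.3 in parental cells with DMSO and 4.32 and 28.3 with 0.1 µM GSK436. All treated arrays lay below all DMSO arrays, and the change of -2.77 ± 0.81 (limma adjusted p = 0.0157) was called. With 1 µM it read 36.4 and 32.7, also below DMSO, and with the low combination 5.05, 59.2 and 121, a wide group that overlapped it. Neither change was called (-1.44 and -1.37). This single call was lost without parental DMSO replicate 1 (-2.57, adjusted p = 0.0581), DMSO replicate 2 (-2.39, adjusted p = 0.0789) or 0.1 µM GSK436 replicate 2 (-1.71, adjusted p = 0.296), and with the log2 actin ratio as a covariate (-1.22, adjusted p = 0.292). With array weights the dim ARAF probe set was also called for the high combination in parental cells (-1.51, adjusted p = 0.0464) and for the line difference with 0.1 µM GSK436 (3.04, adjusted p = 0.0245). The 2 ARAF probe sets also took opposite signs against the actin ratio, as given below.

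**Figure D1:**
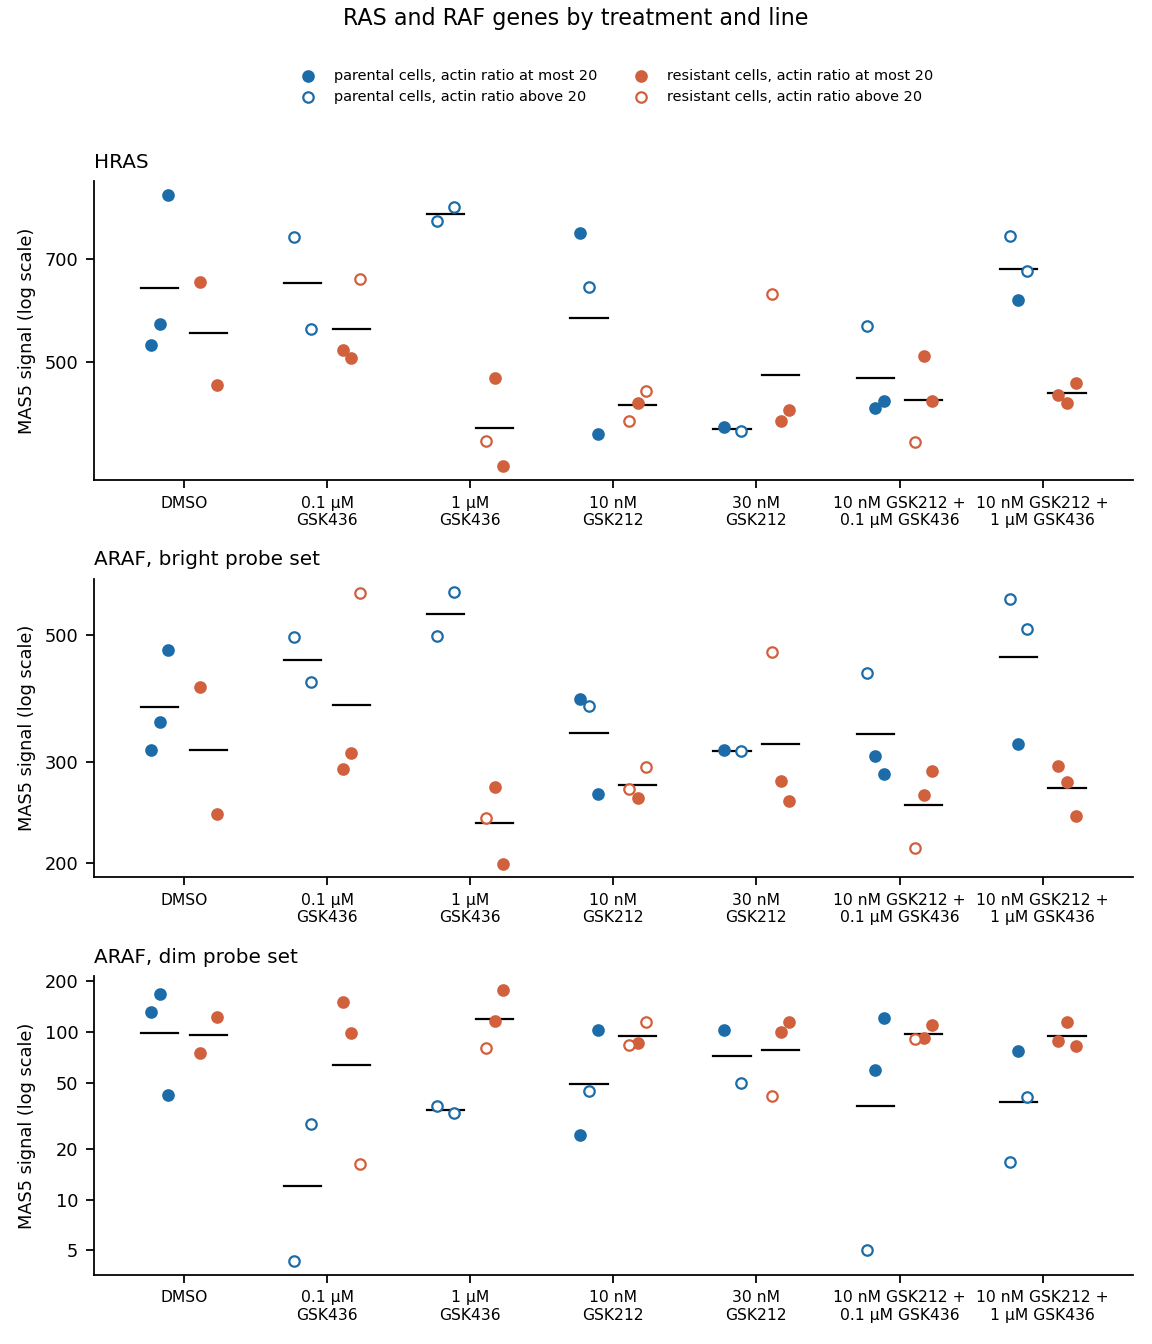
Signal of HRAS and of both ARAF probe sets on each of the 38 arrays, on a log axis, by treatment and line (parental blue, resistant orange); bars are group geometric means and open points are arrays with an actin 3′ to 5′ ratio above 20. HRAS stays between 356 and 861, while the dim ARAF probe set drops to 4.32 in parental cells with 0.1 µM GSK436.

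MAP2K1 encodes MEK1, a kinase that activates ERK. In parental cells its 1 probe set read 796, 1012 and 409 with DMSO. It read 207 and 238 with 0.1 µM GSK436 and 187 and 112 with 1 µM GSK436. All 4 GSK436 arrays lay below all 3 DMSO arrays. MAP2K1 fell by 1.63 ± 0.35 on the log2 scale with 0.1 µM (3.09-fold, limma adjusted p = 0.00125) and by 2.23 ± 0.35 with 1 µM (4.71-fold, adjusted p = 1.65e-05).

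With GSK212 alone MAP2K1 was called at 1 of 2 doses. The 10 nM arrays read 213, 276 and 473, the last of them above the lowest DMSO array, and the change of -1.18 ± 0.32 (2.27-fold, limma adjusted p = 0.00839) was called. That call was lost without DMSO replicate 2 (-0.91, adjusted p = 0.102), without 10 nM replicate 1 (-0.93, adjusted p = 0.0881), and in a fit of the compared groups only (adjusted p = 0.0722). The 30 nM arrays read 592 and 377 and overlapped DMSO, with an uncalled change of -0.55 ± 0.35 (adjusted p = 0.416).

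Of the combinations, the high one gave the tighter group. MAP2K1 read 242, 230.1 and 237 with the high combination, all below DMSO, and fell by 1.54 ± 0.32 (2.90-fold, limma adjusted p = 0.000476). With the low combination it read 293, 475 and 461, which overlapped DMSO, and the change of -0.78 ± 0.32 (adjusted p = 0.113) was not called. Relative to the median of all probe sets, the 1 µM GSK436 change of MAP2K1 was -2.67.

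In resistant cells MAP2K1 read 656 and 930.1 with DMSO, 755, 627 and 336 with 0.1 µM GSK436, and 710.4, 752 and 783 with 1 µM GSK436. The 1 µM arrays lay between the 2 DMSO arrays. With GSK212 it read 595, 764 and 538 at 10 nM and 285, 614 and 774 at 30 nM, and with the high combination 607, 603 and 566. None of the 6 changes was called, and they ran from -0.60 to -0.06 with adjusted p of 0.47 to 1. Over all drug-treated arrays the median MAP2K1 signal was 242 on 15 parental and 610.5 on 18 resistant arrays, and the ranges of 112 to 592 and 285 to 783 overlapped.

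MAP2K2 encodes MEK2, the close relative of MEK1. Its bright probe set read 468, 505 and 783 in parental cells with DMSO, 1402 and 1602 with 0.1 µM GSK436, and 1527 and 1949 with 1 µM GSK436. All 4 GSK436 arrays were above all DMSO arrays, the opposite order to MAP2K1. MAP2K2 rose by 1.39 ± 0.33 on the log2 scale with 0.1 µM (2.62-fold, limma adjusted p = 0.00321) and by 1.59 ± 0.33 with 1 µM (3.02-fold, adjusted p = 0.000632).

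The high combination gave MAP2K2 signals of 1537, 1300 and 1445, again above all DMSO arrays, a rise of 1.32 ± 0.30 (2.49-fold, limma adjusted p = 0.00138). The 10 nM GSK212 arrays read 1505, 1347 and 655 and overlapped DMSO. Their change of 0.94 ± 0.30 had an adjusted p of 0.0284 but was under the fold threshold, and it was called after quantile normalization (1.02, adjusted p = 0.0261). The 30 nM group (708 and 726) and the low combination (1036, 643 and 824) also overlapped DMSO and were not called. With each array centred on its median the MAP2K2 changes kept their sign but were no longer called: 0.58 with 0.1 µM (adjusted p = 0.125), 0.88 with 1 µM and 0.62 with the high combination (adjusted p = 0.0617).

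The second tested probe set, the dim MAP2K2 probe set, had the sign of the first in 5 of 6 parental drug comparisons, with smaller changes. The exception was 0.1 µM GSK436. It read 57.2, 56.8 and 73.9 in parental cells with DMSO, 35.3 and 67.0 with 0.1 µM GSK436, and 120.1 and 83.8 with 1 µM GSK436. The 0.1 µM arrays overlapped DMSO and the 1 µM arrays lay above it. Its parental changes ran from -0.33 to 0.67 and none was called (adjusted p of 0.406 to 0.969). So the called rise of MAP2K2 rests on 1 of its 2 tested probe sets.

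In resistant cells the bright MAP2K2 probe set read 741 and 298 with DMSO, 465, 632 and 957 with 0.1 µM GSK436, and 458, 454 and 316 with 1 µM GSK436. The 2 DMSO arrays were wide apart, and the 1 µM arrays lay between them. With the high combination it read 557, 761 and 830.3. The 6 resistant changes were -0.22 to 0.68 and none was called (adjusted p of 0.329 to 1).

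MAPK3 encodes ERK1, the last kinase of the cascade, and was called in 9 of its 25 comparisons, the most of the 5 genes. Its 1 probe set is of the x type, whose probes may also bind related transcripts, and the share of signal from those is unknown. In parental cells it read 166, 164 and 182 with DMSO, a narrow group. It read 682 and 895 with 0.1 µM GSK436 and 592 and 930.5 with 1 µM GSK436, all above every DMSO array. MAPK3 rose by 2.18 ± 0.28 on the log2 scale with 0.1 µM (4.53-fold, limma adjusted p = 8.73e-07) and by 2.11 ± 0.28 with 1 µM (4.30-fold, adjusted p = 1.17e-06).

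MAPK3 also rose with GSK212 in parental cells. The 10 nM arrays read 540.4, 709.9 and 315, none overlapping DMSO, a rise of 1.52 ± 0.25 (2.87-fold, limma adjusted p = 2.76e-05). The 30 nM arrays read 293 and 417, also above DMSO, with a rise of 1.03 ± 0.28 (2.04-fold, adjusted p = 0.0141). This last call was lost without 30 nM replicate 3 (0.77, adjusted p = 0.329) and without DMSO replicate 2 (adjusted p = 0.0432, just under the fold threshold), with centred arrays (0.60, adjusted p = 0.135) and after quantile normalization (0.95, adjusted p = 0.0358). MAPK3 read 699, 622 and 842 with the high combination, a rise of 2.05 ± 0.25 (4.15-fold, adjusted p = 1.38e-07). With the low combination it read 359, 287 and 328, above DMSO but with a change of 0.91 ± 0.25 (adjusted p = 0.0122) that was under the fold threshold.

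Every one of the 15 drug-treated parental arrays was above the 3 DMSO arrays for MAPK3. Relative to the median change of all probe sets, MAPK3 was 1.72 higher with 0.1 µM and 1.67 higher with 1 µM GSK436. The calls with 0.1 µM, 1 µM, 10 nM and the high combination were kept in all alternatives run, which numbered 51, 52, 53 and 53. Many of these left out an array of a group not compared, which leaves the change itself unchanged. The fit without arrays of actin ratio above 20 could not be run for either GSK436 dose, since all their arrays lay above it. For the high combination that fit kept only 1 parental array. The fit without arrays of 3′ to 5′ GAPDH ratio above 3 could not be run for 0.1 µM GSK436.

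Under each of the 7 treatments, every resistant array read lower for MAPK3 than every parental array. In resistant cells it read 131 and 105 with DMSO, 131, 140.0 and 235 with 0.1 µM GSK436, and 155, 123 and 93.0 with 1 µM GSK436. Changes with GSK436 alone were 0.47 (adjusted p = 0.943) and 0.05 (adjusted p = 1), and neither was called. The 0.1 µM arrays all lay above DMSO, the lowest of them narrowly (130.66 against 130.61), and the 1 µM arrays overlapped DMSO. With GSK212 MAPK3 read 179, 154 and 142 at 10 nM and 269, 174 and 227 at 30 nM, all above DMSO. Those changes of 0.42 (adjusted p = 0.606) and 0.89 ± 0.28 (adjusted p = 0.0751) were not called.

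The combinations gave the highest mean MAPK3 signals of the resistant line. The low combination read 258, 206 and 237, with a change of 0.98 ± 0.28 (limma adjusted p = 0.0391) under the fold threshold. The high combination read 212, 273 and 298, all above DMSO, and MAPK3 rose by 1.12 ± 0.28 (2.18-fold, adjusted p = 0.00988). That call was lost without resistant DMSO replicate 2 (0.97, adjusted p = 0.19), without high combination replicate 3 (1.02, adjusted p = 0.0554), with quantile normalization (0.93, adjusted p = 0.0663) and with centred arrays (0.67, adjusted p = 0.111). Of the drug-treated arrays, the MAPK3 signal was 287 to 930.5 on the parental and 93.0 to 298 on the resistant arrays, with medians of 592 and 193.

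**Figure D2:**
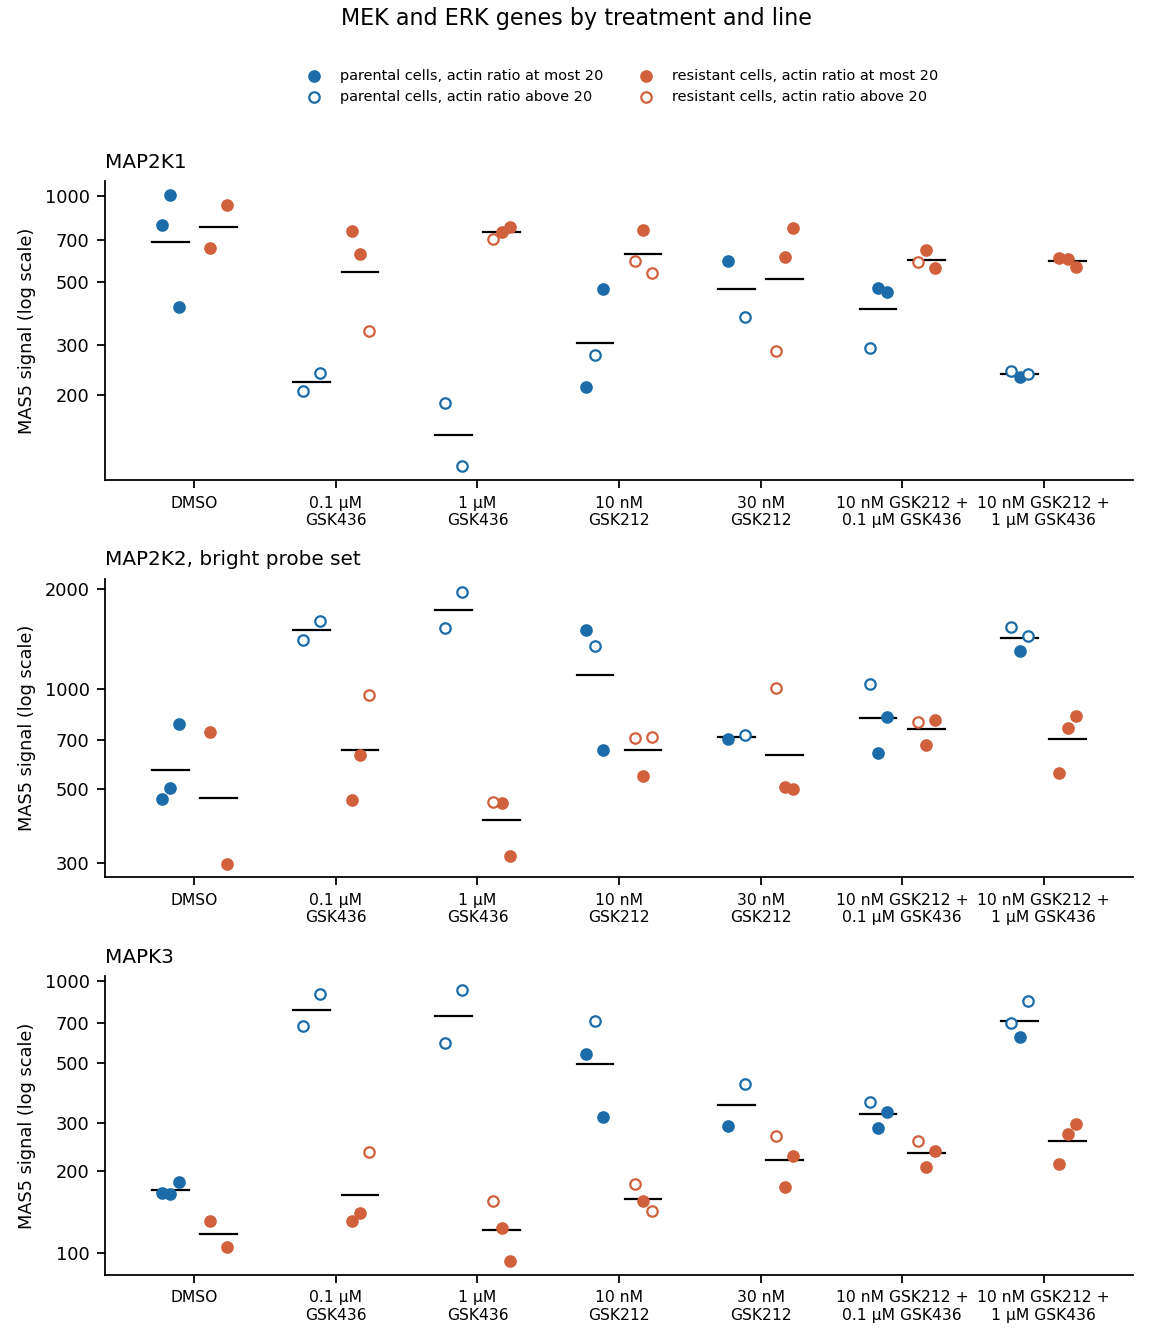
Signal of MAP2K1, MAP2K2 (bright probe set) and MAPK3 on each of the 38 arrays, on a log axis, by treatment and line (parental blue, resistant orange); bars are group geometric means and open points are arrays with an actin 3′ to 5′ ratio above 20. MAPK3 lies at 164 to 182 in parental cells with DMSO and at 592 or above with GSK436 alone, while MAP2K1 falls to 112.

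Across the 6 parental drug comparisons the cascade genes were called 13 times in 42 values, 8 higher and 5 lower, from 4 genes. With 0.1 µM GSK436 4 of the 7 probe sets were called, against 13.1% of all probe sets, and with 1 µM 3 of 7 against 13.7%. The counts were 2 of 7 with 10 nM GSK212 (7.87% of all), 1 of 7 with 30 nM (6.23%), 0 of 7 with the low combination (7.06%) and 3 of 7 with the high combination (12.8%). These comparisons share their DMSO arrays. The median change of the 7 probe sets was 0.54 with 1 µM GSK436, beside 0.43 over all probe sets, and 0.02 with 0.1 µM, beside 0.46. With centred arrays the split was 4 higher and 6 lower, and with quantile normalization it stayed at 8 and 5.

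In resistant cells 1 of 42 values was called, that of MAPK3 with the high combination, where 1 of 7 stood against 3.83% of all probe sets. The other counts were 0 of 7 with 0.1 µM GSK436 (0.00212% of all), 0 of 7 with 1 µM (0.0361%), 0 of 7 with 10 nM GSK212 (1.57%), 0 of 7 with 30 nM (2.36%) and 0 of 7 with the low combination (2.71%). At an unadjusted p under 0.05, 5 of the 42 values passed, against 18 of 42 in parental cells. The share of all probe sets at that cutoff was not counted, so this contrast cannot be read as particular to the cascade genes. GSK436 alone moved almost no probe set of the whole array in this line, so the cascade genes share that background.

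**Figure D3:**
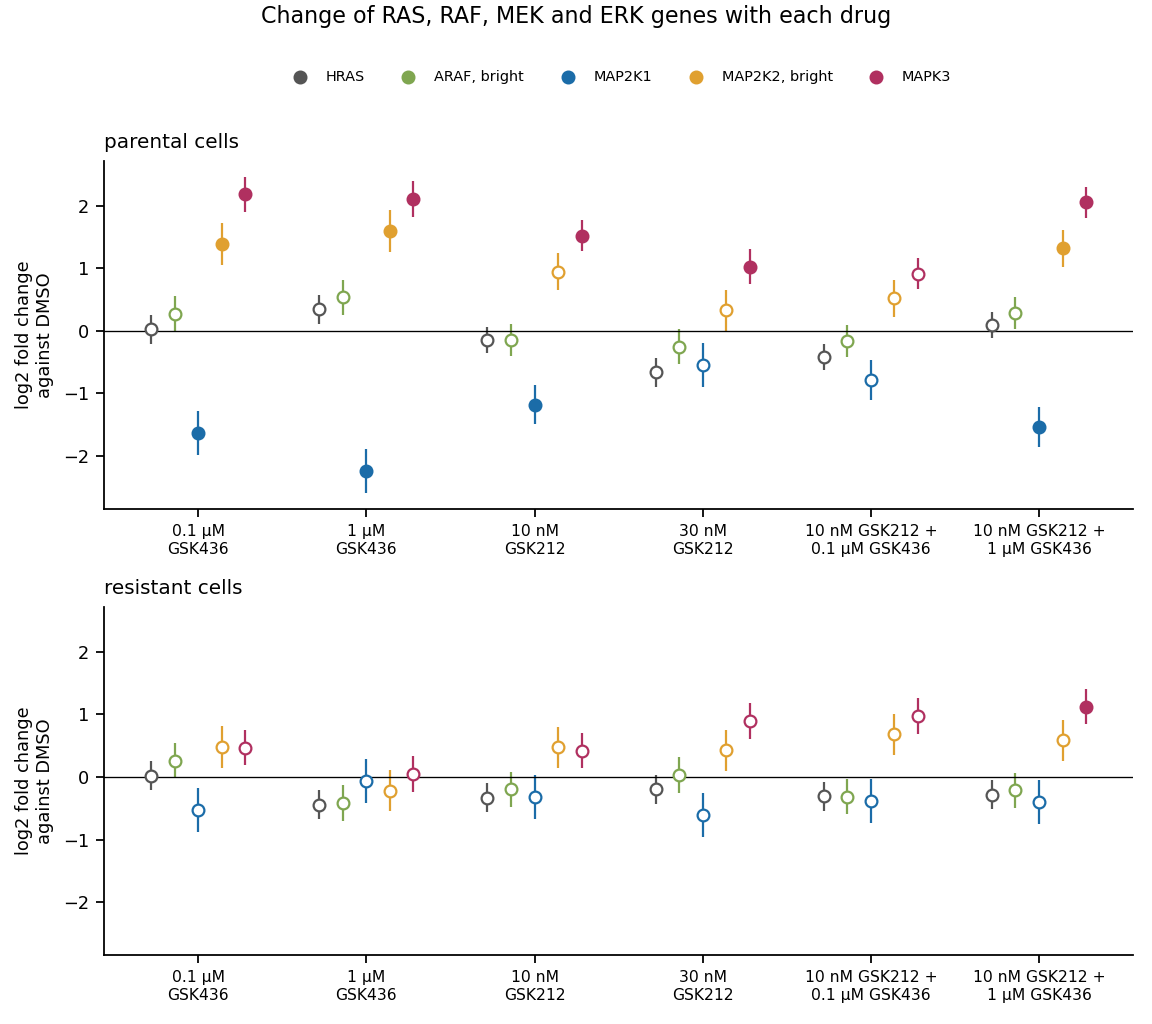
Log2 change against DMSO, with standard errors, of HRAS, ARAF (bright probe set), MAP2K1, MAP2K2 (bright probe set) and MAPK3 for 6 treatments in parental and resistant cells; filled points were called. In parental cells MAPK3 reaches 2.18 and MAP2K1 -2.23, while in resistant cells only MAPK3 with the high combination (1.12) is called.

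Whether the lines differed in their drug change was tested directly, as the resistant change minus the parental change. The MAPK3 change was lower in resistant cells, by -1.71 ± 0.40 with 0.1 µM GSK436 (limma adjusted p = 0.0118) and -2.06 ± 0.40 with 1 µM (adjusted p = 0.00107). MAP2K1 had a difference of 2.17 ± 0.50 with 1 µM GSK436 (adjusted p = 0.00557), since it fell in parental cells and was -0.06 in resistant cells. The bright MAP2K2 probe set had a difference of -1.81 ± 0.47 with 1 µM (adjusted p = 0.0148). So with 1 µM GSK436 3 of 7 probe sets were called, against 5.35% of all, and with 0.1 µM 1 of 7 against 1.96%.

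With the other treatments the cascade genes showed no called difference between lines. The counts were 0 of 7 with 10 nM GSK212 (0.841% of all), with 30 nM (0.344%), with the low combination (0.365%) and with the high combination (0.493%). For MAPK3 the difference was -1.10 ± 0.38 with 10 nM (adjusted p = 0.229), -0.13 with 30 nM, 0.06 with the low and -0.93 with the high combination (adjusted p = 0.411). For MAP2K1 it was 1.10 with 0.1 µM GSK436 (adjusted p = 0.323) and 1.14 with the high combination (adjusted p = 0.431). HRAS differed by -0.79 (adjusted p = 0.161) and the bright ARAF probe set by -0.95 (adjusted p = 0.173) with 1 µM GSK436, and neither was called. With the log2 actin ratio as a covariate the 10 nM GSK212 differences of MAPK3 (-1.32, adjusted p = 0.00523) and MAP2K1 (1.18, adjusted p = 0.031) were called. With array weights those of MAPK3 with 10 nM GSK212 (-1.34, adjusted p = 0.0106) and of MAP2K1 with 0.1 µM GSK436 (1.47, adjusted p = 0.0108) were called.

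Of the 4 called line differences, that of MAPK3 with 1 µM GSK436 held in 52 of 52 alternatives, between -2.38 and -1.58. Many of the 52 left out an array of a group not compared, which leaves the difference itself unchanged. The fit without arrays of actin ratio above 20 was not among them. Both parental 1 µM arrays lay above 20 (23.3 and 32.6), so drug and actin ratio cannot be told apart there by leaving arrays out. The other 3 depended on single arrays. For MAP2K1 the adjusted p was 0.0859 without parental 1 µM replicate 3 (1.81) and 0.0765 without resistant DMSO replicate 1 (1.92). For MAP2K2 it was 0.112 without parental 1 µM replicate 3 (-1.64), 0.295 without resistant DMSO replicate 1 (-1.16) and 0.0573 without the variance trend. For MAPK3 with 0.1 µM it was 0.0845 without parental 0.1 µM replicate 3 (-1.52), 0.105 without resistant DMSO replicate 1 (-1.56), 0.0523 with centred arrays (-1.31) and 0.112 in a fit of the compared groups only.

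Single drugs and the high combination were compared within each line at the same doses. In resistant cells MAPK3 was higher with the high combination than with 1 µM GSK436, by 1.07 ± 0.25 (2.11-fold, limma adjusted p = 0.00525), and the 212 to 298 of the combination did not overlap the 93.0 to 155 of GSK436. That was 1 of 7 probe sets, against 3.28% of all. The call was lost without 1 µM GSK436 replicate 3 (0.89, adjusted p = 0.0644), without high combination replicate 3 (0.97, adjusted p = 0.0439, under the fold threshold), after quantile normalization (0.91) and with centred arrays (0.85). Against 10 nM GSK212 the high combination gave a MAPK3 difference of 0.70 (adjusted p = 0.282), and 0 of 7 probe sets were called against 0.316% of all. Between 1 µM GSK436 and 10 nM GSK212 0 of 7 were called against 1.21%, with the bright MAP2K2 probe set at -0.69 (adjusted p = 0.324).

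In parental cells 0 of 7 probe sets were called in each of these comparisons. The background was 0.034% of all probe sets for the high combination against 1 µM GSK436, 0.206% for the combination against 10 nM GSK212 and 0.469% for 1 µM GSK436 against 10 nM GSK212. The MAP2K1 difference between 1 µM GSK436 and 10 nM GSK212 was -1.05 ± 0.35, which was not called (adjusted p = 0.165). MAPK3 was estimated 0.58 higher with 1 µM GSK436 than with 10 nM GSK212 (adjusted p = 0.334) and 0.53 higher with the combination than with 10 nM GSK212 (adjusted p = 0.466).

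Ordered by mean level over the 14 groups, MAPK3 was highest in parental cells with 0.1 µM GSK436 (788 ± 151, SD, n = 2) and lowest in resistant cells with DMSO (118 ± 18.1, n = 2). MAP2K1 ran the other way, with its highest mean in resistant cells with DMSO (793 ± 193, n = 2) and its lowest in parental cells with 1 µM GSK436 (149 ± 53.2, n = 2). The bright MAP2K2 probe set was highest in parental cells with 1 µM GSK436 (1738 ± 299, n = 2) and lowest in resistant cells with the same dose (409 ± 81.1, n = 3). Neighbouring groups in these orders overlapped in 13 of 13 steps for MAPK3 and the bright MAP2K2 probe set and in 12 of 13 for MAP2K1. The exception for MAP2K1 was the step between parental 0.1 µM and 1 µM GSK436.

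The MEK and ERK genes varied together over the groups. Pearson's r of the 14 group means of log2 signal was 0.963 between MAP2K2 and MAPK3, -0.965 between MAP2K1 and MAP2K2, and -0.946 between MAP2K1 and MAPK3. Within the 7 resistant groups alone the same pairs had 0.852, -0.788 and -0.763, and within the 7 parental groups 0.967, -0.984 and -0.941. HRAS and the bright ARAF probe set had 0.915. The group means of all genes come from the same arrays and so share their scaling and actin ratio.

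Among 18062 other genes, those whose 14 group means followed MAPK3 most closely were OS9 (r = 0.988), WDR13 (0.988) and MELTF (0.981). For MAP2K1 they were DDX3X (0.99), PSMD14 (0.989) and SRSF7 (0.988), and for MAP2K2 CEP164 (0.984), RPL36 (0.984) and USP4 (0.983). HRAS was closest to TXLNA (0.956), QTRT1 (0.951) and DPM2 (0.944), and ARAF to EDC4 (0.962), TBC1D13 (0.95) and BRMS1 (0.948). These are descriptions over 14 groups.

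The actin ratio moved with the signal of every measured cascade gene. Within groups, 7 of 7 probe sets had a slope against it that passed the adjusted threshold, against 27.3% of all probe sets. Per doubling of the ratio, the log2 signal of MAP2K1 changed by -0.30 ± 0.05 (SE, limma adjusted p = 5.04e-06), that of the bright MAP2K2 probe set by 0.27 ± 0.05 (adjusted p = 1.58e-05) and that of MAPK3 by 0.21 ± 0.04 (adjusted p = 0.000301). These signs are those of their parental drug changes. The dim ARAF probe set had the steepest slope of the 7, -0.65 ± 0.12, while the bright ARAF probe set had 0.18 ± 0.05, the dim MAP2K2 probe set -0.30 and HRAS 0.12 ± 0.04. In the 9 groups that held arrays on both sides of a ratio of 20, the arrays above it had the higher MAPK3 and the higher the bright MAP2K2 probe set signal in 9 of 9 groups and the lower MAP2K1 signal in 8 of 9.

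**Figure D4:**
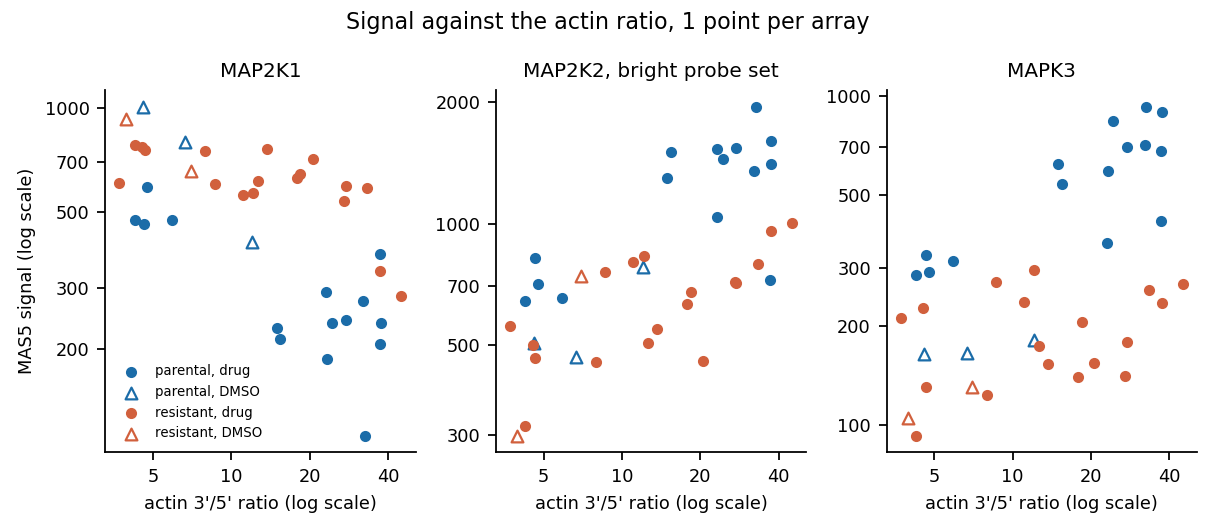
Signal of MAP2K1, MAP2K2 (bright probe set) and MAPK3 against the actin 3′ to 5′ ratio on the 38 arrays, both axes logarithmic (parental blue, resistant orange, open triangles for DMSO). MAP2K1 is lower and MAP2K2 and MAPK3 are higher on arrays of high ratio, and parental arrays with drug lie above resistant arrays of like ratio for MAPK3.

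With the log2 actin ratio as a covariate, MAPK3 kept its calls with 0.1 µM GSK436 (1.68 ± 0.24, limma adjusted p = 2.59e-06), 1 µM GSK436 (1.70 ± 0.23, adjusted p = 6.92e-07), 10 nM GSK212 (1.31 ± 0.20, adjusted p = 2.38e-06) and the high combination (1.72 ± 0.20, adjusted p = 2.31e-08) in parental cells. Its 30 nM change came to 0.84 (adjusted p = 0.00595), under the fold threshold. MAP2K1 kept its calls with 1 µM GSK436 (-1.65 ± 0.25, adjusted p = 6.86e-06) and the high combination (-1.05 ± 0.22, adjusted p = 0.00057), and lost those with 0.1 µM (-0.90, adjusted p = 0.0203) and 10 nM (-0.88, adjusted p = 0.00286). The bright MAP2K2 probe set kept only that with 1 µM GSK436 (1.06 ± 0.24, adjusted p = 0.00201), against 0.74 with 0.1 µM (adjusted p = 0.0608) and 0.88 with the high combination (adjusted p = 0.00313). In all 7 of the 42 parental values were called with the covariate, and in resistant cells MAPK3 with the high combination stayed called (1.02 ± 0.21, adjusted p = 0.000921).

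Both parental GSK436 groups lay wholly above a ratio of 20 and the parental DMSO group wholly below it, so for those comparisons drug and actin ratio cannot be told apart by leaving arrays out. Other comparisons could be refitted without the 15 arrays above 20. With 10 nM GSK212 in parental cells, where 2 of 3 arrays were kept, MAPK3 was then 1.26 higher (limma adjusted p = 0.000898) and MAP2K1 changed by -1.11 (adjusted p = 0.0188), both called. Those 2 arrays had ratios of 15.4 and 5.90, against at most 12.0 with DMSO. The array at 5.90 read 473 for MAP2K1, above the lowest DMSO array (409). With 30 nM GSK212 only 1 parental array, replicate 2, was kept. Its MAPK3 value of 0.77 is given with no test. The high combination kept only 1 of its 3 parental arrays, replicate 2, so its refitted values, 1.85 for MAPK3, -1.58 for MAP2K1 and 1.19 for the bright MAP2K2 probe set, describe that array and are given with no test. In resistant cells MAPK3 was 1.12 higher with the high combination than with DMSO (adjusted p = 0.00408) and 1.25 higher than with 1 µM GSK436 (adjusted p = 0.00218).

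**Figure D5:**
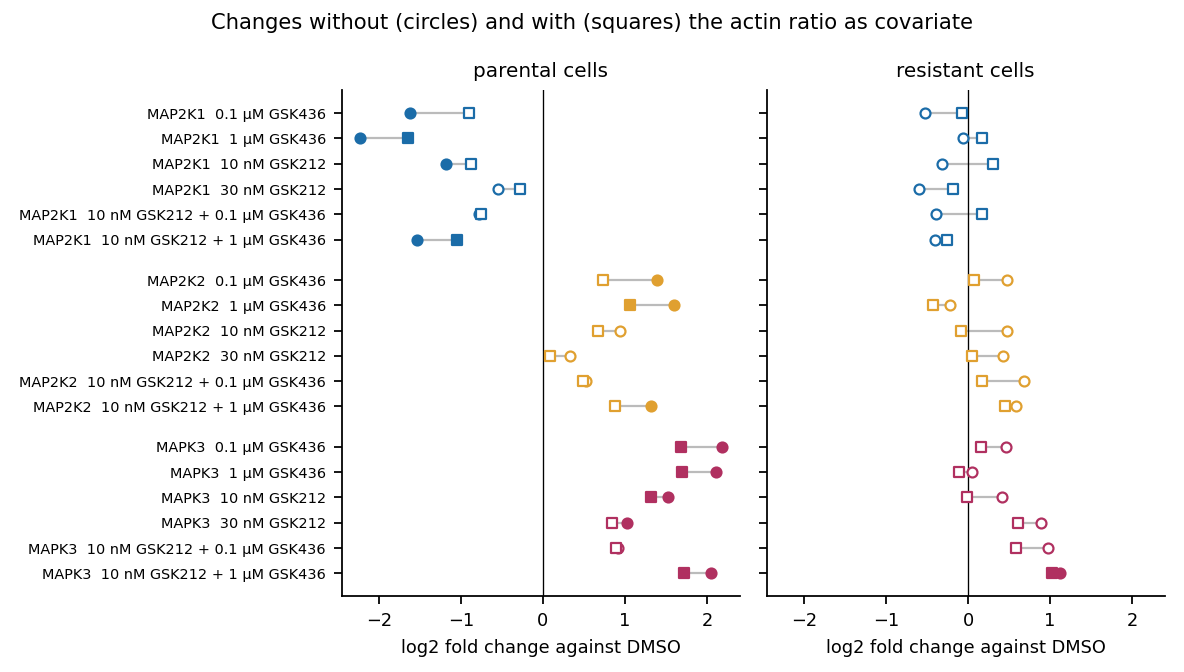
Log2 change against DMSO in parental and resistant cells of MAP2K1, MAP2K2 (bright probe set) and MAPK3, without (circles) and with (squares) the log2 actin ratio as a covariate; filled points were called. In parental cells all 3 genes move toward 0 with 0.1 µM GSK436 when the covariate is added, MAPK3 from 2.18 to 1.68 and MAP2K1 from -1.63 to -0.90.

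A check that ERK signalling responded came from DUSP6, an ERK phosphatase gene switched on by ERK itself. In parental cells DUSP6 fell in all 6 drug comparisons, with log2 changes of -4.91 with 0.1 µM GSK436, -4.83 with 1 µM, -7.12 with 10 nM GSK212 and -7.56 with the low combination. In resistant cells its changes with GSK436 alone were -0.14 (limma adjusted p = 0.983) and -0.79 (adjusted p = 1), and it fell in the 4 comparisons with GSK212 (-4.68 to -6.61). The difference between lines was 4.77 with 0.1 µM (adjusted p = 0.00122) and 4.04 with 1 µM GSK436 (adjusted p = 0.00382). MAPK3 and DUSP6 thus both passed the test of the line difference at both GSK436 doses, with opposite signs. Over the parental treatments the sizes of their changes did not run in parallel. The low combination had the deepest DUSP6 fall and the smallest MAPK3 rise (0.91, not called). With 0.1 µM GSK436 the MAPK3 rise was the largest (2.18), beside a DUSP6 change of -4.91. A relation between the 2 genes was not tested.

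Other genes of the cascade were counted from lists, 1 probe set a gene. Of the other RAS, RAF and ERK genes 5 of 8 were measured. With 1 µM GSK436 in parental cells 2 rose and 0 fell, against 17.9% of all 18063 genes called: the RAS relatives MRAS (2.07 ± 0.30, limma adjusted p = 3.58e-06) and RRAS (1.82 ± 0.27, adjusted p = 5.43e-06). With 10 nM GSK212 the same pair rose, RRAS by 2.23 and MRAS by 1.53, against 11.1% of all genes. In resistant cells both rose with the high combination, MRAS by 1.84 and RRAS by 1.41, against 5.9% of all genes. Of the 9 measured exchange factor and adaptor genes, which load RAS with GTP or link it to receptors, 0 were called with 1 µM GSK436. SOS2, a RAS exchange factor, rose with 10 nM GSK212 in parental cells (1.23 ± 0.27, adjusted p = 0.00148) and with the high combination in resistant cells (1.29).

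Genes that restrain the cascade gave calls in 1 direction in these 3 comparisons. Of 13 measured genes that inactivate RAS or hold back RAF, 0 rose and 4 fell with 1 µM GSK436 in parental cells: SPRY2 (-3.67), SPRY4 (-2.80), SPRED2 (-2.44) and SPRED1 (-2.12), against 17.9% of all genes called. The same 4 fell with 10 nM GSK212, at -4.17, -2.68, -2.37 and -1.74, against 11.1%. In resistant cells with the high combination 0 rose and 3 fell: SPRY2 (-3.73), SPRED2 (-1.99) and SPRED1 (-1.75), against 5.9%. The median change of the 13 genes with 1 µM GSK436 was -0.66, beside 0.39 over all genes.

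The ERK phosphatases behaved likewise. Of 7 genes 0 rose and 5 fell with 1 µM GSK436 in parental cells, with DUSP6, DUSP4 (-2.70), DUSP5 (-2.42) and DUSP1 (-1.97) changed most, against 17.9% of all genes called, and 5 fell with 10 nM GSK212, against 11.1%. In resistant cells with the high combination 4 fell, with DUSP5 at -4.27, DUSP4 at -3.53 and DUSP7 at -1.56 beside DUSP6, against 5.9%. Between the lines with DMSO, DUSP1 and DUSP5 were higher in resistant cells, by 2.72 and 2.28, while 0 phosphatases were lower, against 3.35% of all genes called.

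Of the 18 scaffold and RAF phosphatase genes, which hold RAF, MEK and ERK together or control RAF, 2 rose and 1 fell with 1 µM GSK436 in parental cells: CNKSR1 (2.37), YWHAB (1.01) and YWHAH (-1.72). That count is near the background of 17.9% of all genes called. With the high combination in resistant cells CNKSR1 was the 1 scaffold gene called (2.12), against 5.9%. Of 13 genes for ERK substrate kinases and transcription factors 2 rose and 3 fell with 1 µM GSK436, against 17.9%, among them MYC (-2.92), FOSL1 (-2.55), ELK3 (-2.18) and RPS6KA2 (1.79). In resistant cells with the high combination 2 fell, FOSL1 (-2.77) and ELK3 (-2.03), against 5.9%. Of 12 measured genes of other MAP kinase cascades, MAPK12 rose (1.48) and MAPK9 fell (-1.02) with 1 µM GSK436 in parental cells, and MAPK13 fell (-2.33) with the high combination in resistant cells. These counts of 2 and 1 of 12 are near the 17.9% and 5.9% of all genes called. In resistant cells with GSK436 alone 0 genes of these 7 lists were called at either dose, against 0.00554% and 0.072% of all genes.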

How the data were processed

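The 38 samples were one-colour Affymetrix arrays. Per the labels' protocols, RNA was extracted with Trizol and 500 ng was labelled with biotin as cRNA. The deposited values are linear intensities that the authors made with MAS5, per the labels; its version, the scaling target and detection calls were not given in the sources used here. A trimmed mean leaving out 2% at each end was 150.0 on every array. Genes were named from the platform annotation, where 41091 probe sets name 1 gene, 1801 several and 11721 none, and 41042 match a RefSeq symbol (GRCh38.p14).

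Probe sets with at least 2 arrays above the pooled median of 34.88 were kept, without 62 controls. log2(signal + 2.8), where 2.8 is the 10th percentile of the deposited intensities, was fitted with limma 3.58.1 (R 4.3.3) as 14 group means with eBayes and a variance trend, leaving 24 residual degrees of freedom. The script was tested on simulated data. The 25 comparisons formed 5 families: the lines with DMSO, each treatment against DMSO in parental and in resistant cells, the line difference of that change, and single drugs or the high combination within a line. P-values were adjusted within each comparison. Named genes were every probe set of the members, the 3 genes closest to each member over group means, up to 4 called genes a list by size of change, and DUSP6. The members and lists were chosen with earlier results of these data known. Precision is limited by the 2 or 3 arrays a group. Promoter windows are from RefSeq. Alternatives changed the normalization, pseudocount, filter, variance model, samples fitted, array weights, call rule, replicate block and RNA quality, and left out each array in turn.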

Additional observations from a re-analysis of the deposited data

Results flagged for a closer look

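With GSK436 alone, the change against DMSO of 3 cascade genes differed between the lines by a test of the difference itself. MAPK3, which encodes ERK1, differed by -1.71 on the log2 scale with 0.1 µM GSK436 (resistant change minus parental change, limma adjusted p = 0.0118) and by -2.06 with 1 µM (adjusted p = 0.00107). MAP2K1, which encodes MEK1, differed by 2.17 with 1 µM GSK436 (adjusted p = 0.00557). MAP2K2, which encodes MEK2, differed by -1.81 with 1 µM at its bright probe set (adjusted p = 0.0148). With 1 µM GSK436 3 of 7 probe sets were called, against 5.35% of all, and with 0.1 µM 1 of 7 against 1.96%. With the log2 actin ratio as a covariate the 4 differences were -1.52, -1.81, 1.81 and -1.49 in the same order, and all stayed called. Those of MAP2K1, of MAP2K2 and of MAPK3 with 0.1 µM lost their calls when certain single arrays were left out. No group held 4 or more arrays, so no array was tested as lying far from its group.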

How the results depend on the processing

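Counts of called cascade values are compared with 0 for the lines with DMSO, 13 of 42 for drugs in parental cells, 1 of 42 in resistant cells, 4 of 42 for line differences in drug change and 1 of 42 within a line. Leaving out each array in turn gave 0 to 0, 10 to 15, 0 to 1, 1 to 5 and 0 to 1. The line differences fell to 2 without parental 1 µM GSK436 replicate 3 and to 1 without resistant DMSO replicate 1. The resistant call was lost without resistant DMSO replicate 2 or high combination replicate 3, and the call within a line without resistant 1 µM GSK436 replicate 3 or high combination replicate 3. Quantile normalization and centring each gave 0 calls in resistant cells and 0 within a line. The actin covariate gave 7 in parental cells and 2 within a line, array weights gave 9 line differences, and dropping the fold threshold gave 2 in resistant cells; the cause was not tested. No called value changed sign. Uncalled values changed sign in 32 of 155 with centring and 40 of 153 with the actin covariate. A fit limited to arrays of actin ratio up to 20 was not run for the parental, line-difference and within-line families as wholes, because the parental GSK436 groups hold no other arrays. Leaving out the 4 arrays with a GAPDH ratio above 3 was chosen after seeing the data. Arrays of the same replicate number did not deviate together (median r = 0.005, -0.274 to 0.233 over 224 pairs). Of 38 arrays, 5 correlated best with an array of their own number. With groups of 2 or 3 arrays this cannot exclude that the numbers pair the samples. With a replicate block the counts stayed at 0, 13, 1, 4 and 1. Groups of 2 or 3 arrays and the shared DMSO arrays limit every comparison. Of the 7 tested probe sets, the dim ones of ARAF and MAP2K2 had the widest errors.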

Other observations

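In parental cells with 0.1 µM GSK436, 4 further genes of the listed cascade groups fell that were not called with 1 µM GSK436: CNKSR2, a scaffold gene (-2.23, limma adjusted p = 0.0225), RRAS2, a RAS relative (-1.18, adjusted p = 0.0039), RASSF1, a RAS-binding protein (-2.13, adjusted p = 0.00378), and PTPN11, a phosphatase that acts between receptors and RAS (-1.14, adjusted p = 0.000614). SOS2, a RAS exchange factor, was called higher with 0.1 µM and not with 1 µM (1.00, adjusted p = 0.02). The difference between the doses was not tested. These genes were chosen after their values were seen.

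With 30 nM GSK212, DUSP9, an ERK phosphatase gene, rose in resistant cells (2.58, limma adjusted p = 0.0455), while DUSP4, DUSP5, DUSP6 and DUSP7 fell there. PPP1CB, a catalytic subunit of the phosphatase that acts on RAF, rose in parental cells with the same dose (1.52, adjusted p = 8.63e-05). Both were chosen after their values were seen.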
